A study of Mus musculus with 9 samples.

Results

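The 9 genes described here encode proteins of the tight junction, the seal between neighbouring cells of an epithelium or endothelium. They were the rows named Cldn1, Cldn3, Cldn4, Cldn5, Cldn11, Cldn12, Ocln, Tjp1 and Tjp3 among the 52025 genes listed in each table. RNA sequencing had been done on ovaries of juvenile Kunming mice collected on postnatal day (PD) 14, PD15 and PD16, with 3 libraries for each day. Ovary is the labelled tissue, but granulosa cells are named as the source, while the methods of the study describe RNA taken from ovaries. The oocyte marker Zp3 lay between 263 and 416 FPKM and the endothelial marker Cdh5 between 23.1 and 28.5 FPKM, so RNA of cells other than granulosa cells was present in all 9 libraries. The comparison of days asked how these genes were expressed over the time when the first follicular antra form.

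A tight junction is built from claudins and occludin, which cross the membrane and meet their partners on the next cell, and from ZO proteins, which hold them to the actin cytoskeleton. Claudins decide what a junction lets through. Some of them seal the space between cells and others leave it open to small ions. In the ovary, such junctions lie between cells of the surface epithelium and in the walls of blood vessels. Whether they lie between follicular cells has been disputed, and the study proposes that they form there when the antrum first forms. The follicular antrum is the fluid-filled space that opens among the granulosa cells.

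Values are FPKM, that is mapped fragments scaled by the exon length of the gene and by the depth of the library. Levels can then be compared between genes as far as these exon lengths hold. The libraries held 20.4 to 28.7 M mapped fragments, as read from the step of a single fragment in the low values, and 14590 to 14923 genes per library lay above an FPKM of 1. Differences between days are given on the log2(FPKM + 1) scale from limma, fitted to all 9 libraries and 15495 genes, with Benjamini-Hochberg adjusted p-values. A gene was called at an adjusted p under 0.05. The members other than Tjp3 passed the filter, which asked for the mean of any 1 day to exceed an FPKM of 1. The labels do not say from how many animals the libraries came. The study describes the 3 ovaries of a day as biologically independent, and the p-values measure the spread between these libraries only.

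Across the 3 days, claudin levels lay lower on PD16 than on PD14 in 5 of the 6 claudins by their means, and 1 of these differences, that of Cldn11, passed the test (1 of 8 members tested, against 4.25% of all genes called). The scaffold gene Tjp1 was the most abundant member at 35.9 ± 2.80 FPKM over all libraries (SD, n = 9), followed by the endothelial claudin Cldn5 at 28.1 ± 5.01 FPKM. Cldn4 was the only member whose mean was highest on PD15. None of the 8 members tested was called between PD15 and PD14 or between PD16 and PD15, where 0.678% and 0.729% of all genes were called.

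**Figure D1:**
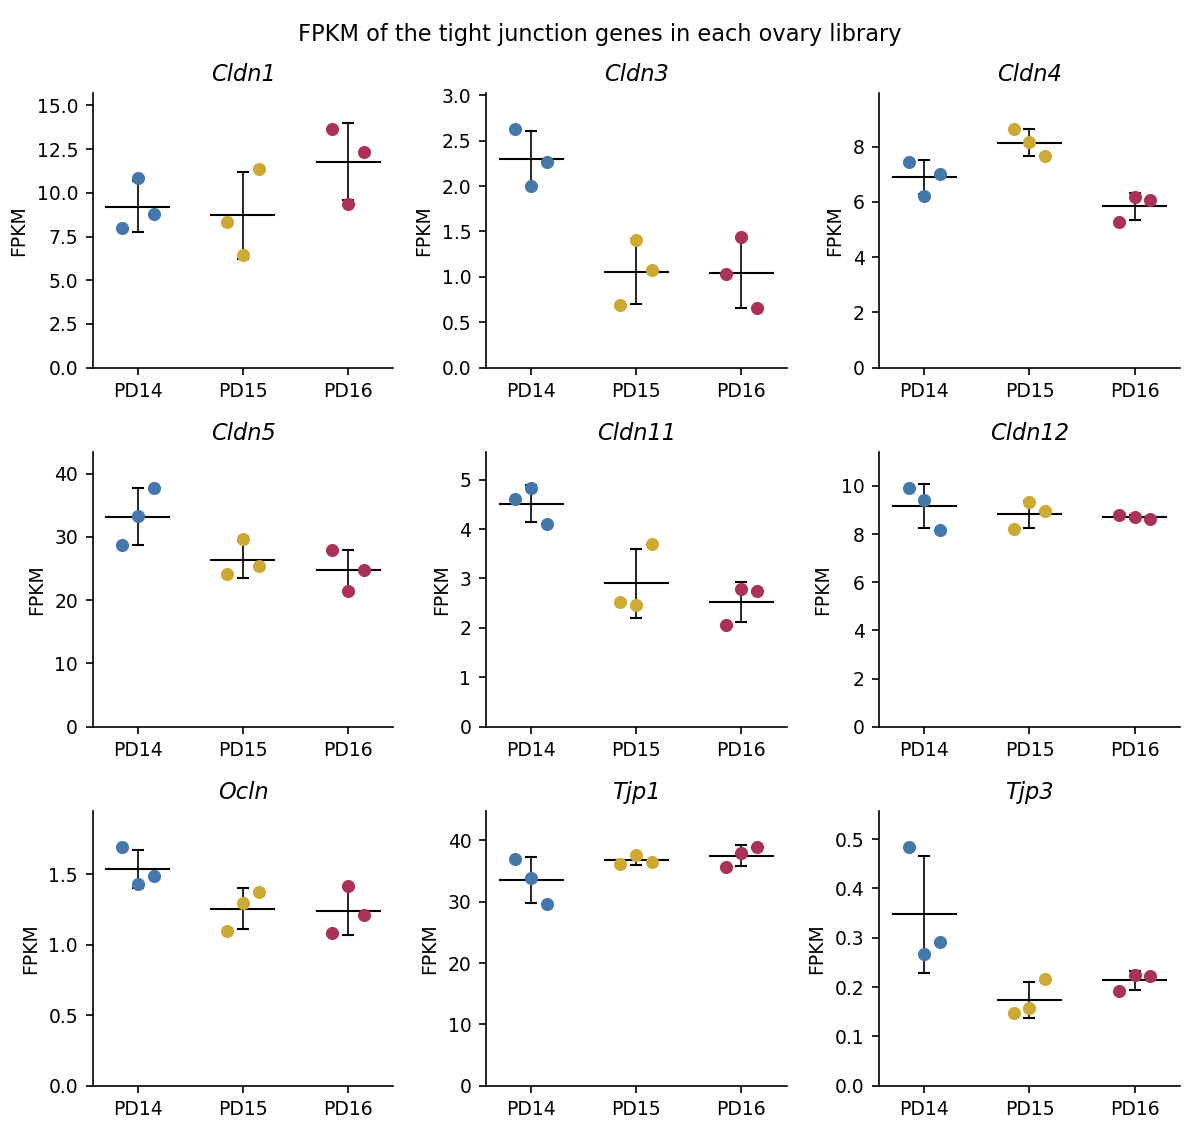
FPKM of each of the 9 members in every library by postnatal day. Each point is a library, the long bar is the mean of the 3 libraries of a day and the error bar their SD, and every axis starts at 0. All 3 PD14 libraries lie above all PD15 and PD16 libraries in Cldn3, Cldn11, Ocln and Tjp3, and all 3 PD15 libraries of Cldn4 lie above the other days.

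Cldn11 is known as the claudin that seals the Sertoli cell barrier of the testis and the layers of central myelin. In the ovary it was expressed at 4.60, 4.83 and 4.10 FPKM in the 3 PD14 libraries. It stood at 2.52, 2.47 and 3.70 FPKM on PD15 and at 2.07, 2.78 and 2.75 FPKM on PD16. The PD14 libraries lay above all later ones, and the PD15 and PD16 libraries overlapped. These values rest on 92 to 218 fragments per library, and the lowest of them, 2.07 FPKM, has a 95% Poisson interval of 1.67 to 2.53 FPKM that covers counting error only.

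Cldn11 fell from PD14 to PD16 by 0.65 on the log2 scale (SE 0.13, 95% interval -0.94 to -0.35, adjusted p = 0.0316), and its PD16 mean was 43.8% below that of PD14. The lower level was seen in 3 of 3 PD16 libraries. On PD15 the difference from PD14 was -0.51 (SE 0.13, adjusted p = 0.129), which did not pass the test, and between PD16 and PD15 it was -0.13 (adjusted p = 0.719). Both comparisons with PD14 share the PD14 libraries. The call between PD16 and PD14 was lost when any of the 6 libraries of these days was left out: the adjusted p was then 0.092, 0.0765 and 0.0834 without PD14 replicate 1, 2 and 3, and 0.102, 0.0604 and 0.0548 without PD16 replicate 1, 2 and 3. It was also lost without the filter on low values (adjusted p = 0.0899) and with the replicate number as a block in limma (adjusted p = 0.0632). In whole ovary RNA, fewer cells of a type and less RNA per cell cannot be told apart, and this holds for every gene described here. Of the 10 granulosa cell markers, Amh was called higher and Cyp19a1 lower on PD16 than on PD14, against 4.25% of all genes called in either direction. At an unadjusted p under 0.05, 2 of the 10 were higher and 4 lower on PD16 (22.8% of all genes in either direction), and 2 higher and 3 lower on PD15 (14.7%), each against PD14. The summed level of the list was 3000 to 3680 FPKM on PD14, 2810 to 3240 on PD15 and 2920 to 3470 on PD16. The 6 theca and interstitial cell markers summed to 1560 to 2190 FPKM on PD14, 1130 to 1720 on PD15 and 1170 to 1580 on PD16, nearly all of it Hsd3b1. With limma, 0 of the 6 were called between any 2 days. At an unadjusted p under 0.05, 2 of the 6 were lower on PD15 than on PD14, against 14.7% of all genes. Likewise 2 of the 6 were lower on PD16 than on PD14 (22.8%), and 1 was higher on PD16 than on PD15 (14.1%). The part of these cell types in the Cldn11 difference was not tested.

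Cldn3, a sealing claudin of many epithelia, was expressed at 2.63, 2.01 and 2.26 FPKM on PD14. On PD15 its level was 0.686, 1.40 and 1.08 FPKM, and on PD16 it was 1.03, 1.43 and 0.656 FPKM. Again no later library reached the lowest PD14 library. The counts behind these values are small, at 58 to 81 fragments on PD14 and 21 to 42 fragments on the later days. The PD16 mean was 54.7% below the PD14 mean, with a log2 difference of -0.71 (SE 0.17, 95% interval -1.09 to -0.32), but the adjusted p of 0.0515 missed the threshold. The PD15 difference of -0.69 (adjusted p = 0.116) missed it as well, although each interval excluded 0. The added 1 FPKM shrinks the change of so low a gene: with 0.1 FPKM added instead, the PD16 difference was -1.12 (adjusted p = 0.0698). Without PD15 replicate 1 the PD16 difference was called, at an adjusted p of 0.0499.

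Cldn4, which seals epithelia and acts as a partner of other claudins, took a different course. It was expressed at 7.46, 6.22 and 7.0 FPKM on PD14, at 8.63, 8.17 and 7.65 FPKM on PD15 and at 5.27, 6.16 and 6.08 FPKM on PD16. All PD15 libraries were above all others, and all PD16 libraries were below all PD14 libraries, the nearest pair being 6.22 and 6.16 FPKM. The PD15 mean was 18.2% above the PD14 mean (log2 difference 0.21, SE 0.08, adjusted p = 0.261). The PD16 mean was 28.4% below the PD15 mean (-0.42, SE 0.08, 95% interval -0.60 to -0.24, adjusted p = 0.0558) and 15.3% below the PD14 mean (-0.21, SE 0.08, adjusted p = 0.168). None of these passed the test. The difference between PD16 and PD15 was called in 3 alternatives: with a filter at a mean FPKM of 5 (adjusted p = 0.0449), with quantile normalisation (0.0493) and without PD14 replicate 2 (0.0467). In the other 16 of 19 alternatives it was not called, with adjusted p-values up to 0.163. With 228 to 399 fragments per library, the counting intervals of the nearest libraries of PD15 and PD16 just touched: the lowest PD15 value of 7.65 FPKM has an interval of 6.92 to 8.44, and the highest PD16 value of 6.16 FPKM one of 5.43 to 6.97.

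Cldn3 and Cldn4 are neighbours on chromosome 5, at chr5:134986214-134987472 (plus strand) and chr5:134945119-134946934 (minus strand) in the mm10 build. Each has 1 exon, they point away from each other, and 39.3 kb separate them with no whole protein-coding gene between. Cldn11 has 3 exons at chr3:31149920-31164324 (plus strand). The ratio of Cldn4 to Cldn3 was 2.84 to 3.10 in the PD14 libraries, 5.83 to 12.6 on PD15 and 4.29 to 9.28 on PD16, so the days after PD14 stood apart from it and overlapped with each other. The exons of Cldn3 overlap those of the antisense gene Wbscr25, which was at 0 to 0.0397 FPKM. The library kit does not mark strand, so reads of both cannot be told apart.

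The 250 bases before the start sites of these 3 genes are shown because Cldn11 was the member called, and because Cldn4 was highest on another day than its near neighbour Cldn3. PD14 was the day with the highest mean for Cldn3 and Cldn11, as it was for Cldn5, Cldn12, Ocln and Tjp3. The sequences come from RefSeq on GRCm38.p6 (mm10), are read 5′ to 3′ on the strand of the gene, and lie at chr5:134985964-134986213, chr5:134946935-134947184 and chr3:31149670-31149919. Capitals mark matches on either strand to the GC box GGGCGG, the CCAAT box CCAAT and the E-box CAGGTG.
Cldn3: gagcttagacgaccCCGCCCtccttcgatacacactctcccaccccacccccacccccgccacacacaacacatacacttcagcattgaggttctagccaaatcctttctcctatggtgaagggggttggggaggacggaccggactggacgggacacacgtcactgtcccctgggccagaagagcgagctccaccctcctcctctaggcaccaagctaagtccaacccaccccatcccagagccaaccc
Cldn4: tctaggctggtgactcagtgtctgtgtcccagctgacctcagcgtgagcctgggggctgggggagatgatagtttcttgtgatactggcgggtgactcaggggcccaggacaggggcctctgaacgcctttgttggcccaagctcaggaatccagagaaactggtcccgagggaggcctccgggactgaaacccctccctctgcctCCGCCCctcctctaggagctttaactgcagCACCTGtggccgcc
Cldn11: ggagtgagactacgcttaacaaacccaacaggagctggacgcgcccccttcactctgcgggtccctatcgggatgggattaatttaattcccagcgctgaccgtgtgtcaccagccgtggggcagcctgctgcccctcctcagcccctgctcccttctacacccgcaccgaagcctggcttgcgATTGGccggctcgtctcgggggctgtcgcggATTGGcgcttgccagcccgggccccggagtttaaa

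The motifs were searched in the 250 bases before the start site, in these genes and in all windows they are compared with. The E-box is the sequence bound by Snail repressors, which are known to act on claudin and occludin genes. It was found once in the Cldn4 window, starting 14 bases before the start site, and in neither of the windows of Cldn3 and Cldn11. Among all 32851 promoter windows of this length, 17.2% held it. A GC box lay 44 bases before the Cldn4 start and 236 bases before the Cldn3 start, against 32.7% of all windows with at least 1. Cldn11 had CCAAT boxes at 66 and 35 bases before its start (33.8% of all windows held at least 1). Of the remaining searched motifs, on both strands, none of the 9 members' windows held the TATA box TATAAA (12.4% of all windows), the steroidogenic factor 1 site CAAGGTCA (1.33%) or the Grainyhead-like site AACCGGTT (0.116%). No motif overlaps another in the windows shown. The GC content of the windows was 60.8% for Cldn3, 62.0% for Cldn4 and 63.6% for Cldn11, and the median of all windows in the RefSeq table was 52.4%. The E-box also occurred in a window of Ocln, 213 and 68 bases before the start, and in both windows of Tjp3. These matches describe letters in the windows and not bound sites.

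Cldn5, a gene of 1 exon at chr16:18776847-18778262 (plus strand), encodes the main claudin of blood vessel walls. Its level was 28.6, 33.3 and 37.7 FPKM on PD14, 24.1, 29.7 and 25.3 FPKM on PD15 and 27.9, 21.4 and 24.7 FPKM on PD16. The PD16 libraries were below all PD14 libraries, though by less than 1 FPKM at the nearest pair, and those of PD15 overlapped with PD14. The log2 difference was -0.41 between PD16 and PD14 (SE 0.12, 95% interval -0.69 to -0.13, adjusted p = 0.092), -0.32 between PD15 and PD14 (adjusted p = 0.275) and -0.09 between PD16 and PD15 (adjusted p = 0.804). None of the 3 passed the test. The 12 endothelial markers summed to 157 to 168 FPKM on PD14, 163 to 167 on PD15 and 157 to 161 on PD16. A single gene, Sox18, held this sum level: without it, a choice made after its values were seen, the other 11 summed to 121 to 131 FPKM on PD14, 111 to 118 on PD15 and 113 to 119 on PD16, with all PD14 libraries above the later ones, as PD14 lay above PD16 in Cldn5. By their log2 differences, 10 of the 12 lay below 0 on PD15 against PD14 (median -0.11) and 9 of the 12 on PD16 against PD14 (median -0.16). At an unadjusted p under 0.05, 3 were lower and 1 higher on PD15, and 5 were lower and 1 higher on PD16, against 14.7% and 22.8% of all genes in either direction. Sox18 was called higher on PD15 (log2 difference 0.47, adjusted p = 0.0356) and Tie1 lower on PD16 (-0.25, adjusted p = 0.0458), each against PD14. Relative to the endothelial cadherin Cdh5, Cldn5 stood at 1.10 to 1.41 on PD14, 0.958 to 1.11 on PD15 and 0.928 to 1.16 on PD16, and relative to Pecam1 at 2.51 to 2.96, 2.15 to 2.83 and 2.06 to 2.55. Both ratios overlapped between PD14 and PD16, and the part of vessel content in the Cldn5 values was not tested.

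Cldn1 (chr16:26356642-26371841) and Cldn12 (chr5:5489537-5514958), both on the minus strand, completed the claudins. Cldn1, a sealing claudin that the skin barrier needs, was expressed at 7.99, 10.8 and 8.81 FPKM on PD14, 8.34, 6.44 and 11.4 FPKM on PD15 and 13.6, 9.35 and 12.3 FPKM on PD16, and all days overlapped. Its mean was 35.1% higher on PD16 than on PD15 (log2 difference 0.41, SE 0.19, 95% interval -0.02 to 0.84, adjusted p = 0.371) and 27.7% higher than on PD14 (0.32, SE 0.19, adjusted p = 0.360). Leaving out a library gave log2 differences of 0.23 to 0.60 against PD15 and 0.21 to 0.46 against PD14. Cldn12, which allows calcium to pass in the gut, stayed between 8.16 and 9.90 FPKM. It lay at 9.90, 9.42 and 8.16 FPKM on PD14, 8.21, 9.32 and 8.95 FPKM on PD15 and 8.80, 8.71 and 8.61 FPKM on PD16. The interval of its log2 difference between PD16 and PD14 ran from -0.23 to 0.10 (adjusted p = 0.655), and that between PD15 and PD14 from -0.21 to 0.12.

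The 6 claudins together summed to 65.3 ± 3.59 FPKM on PD14, 56.0 ± 3.07 FPKM on PD15 and 54.6 ± 4.46 FPKM on PD16 (SD, n = 3 each). Cldn5 made up 50.7 ± 4.36% of this sum on PD14, 47.1 ± 4.14% on PD15 and 45.1 ± 2.30% on PD16, with overlapping libraries. The share of Cldn4 was 9.34 to 12.2% on PD14, 13.2 to 16.4% on PD15 and 8.97 to 12.4% on PD16, so that PD15 lay above both other days. Cldn1 held 13.0 to 16.3% on PD14, 11.2 to 19.6% on PD15, overlapping with both other days, and 18.7 to 23.2% on PD16. The share of Cldn3 was 3.01 to 4.29% on PD14, above all libraries of PD15 (1.31 to 2.44%) and PD16 (1.19 to 2.88%). Cldn11 held 6.02 to 7.52% on PD14, 4.30 to 6.38% on PD15 and 3.52 to 5.57% on PD16. Shares of 1 sum are tied to each other, and they were not tested.

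**Figure D2:**
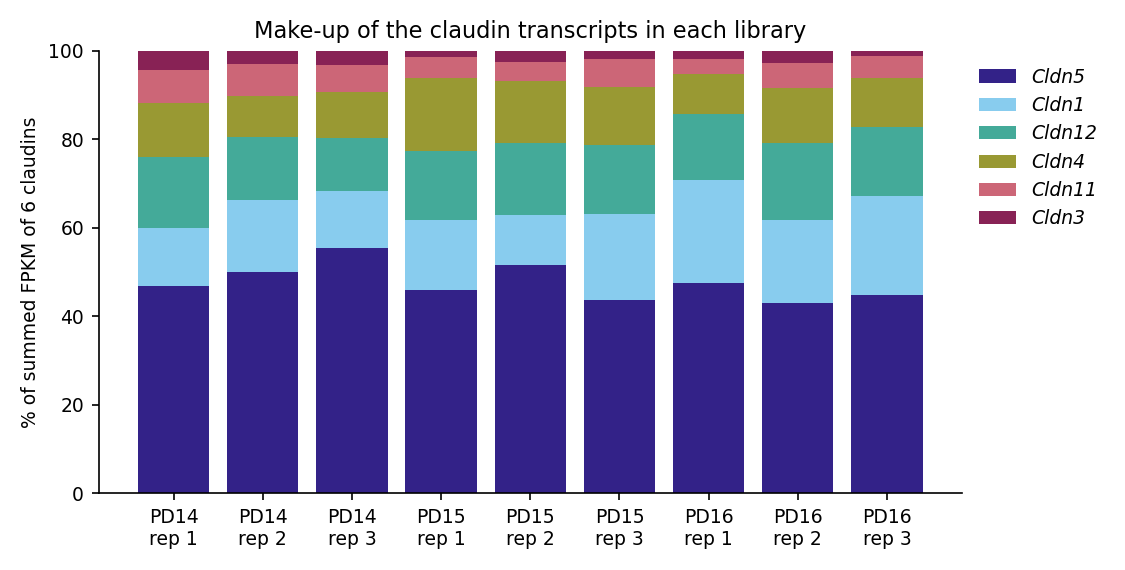
Make-up of the claudin transcripts, as the percentage of the summed FPKM of the 6 claudins (vertical axis, 0 to 100%) in each of the 9 libraries (horizontal axis). Cldn5 holds 43.0 to 55.4% of the sum in every library, and the Cldn4 segment is widest in the PD15 libraries.

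Ocln (chr13:100496507-100552718, minus strand) encodes occludin, which spans the membrane beside the claudins and takes part in regulating the seal. It was low in all libraries, at 1.69, 1.43 and 1.49 FPKM on PD14, 1.10, 1.29 and 1.38 FPKM on PD15 and 1.08, 1.42 and 1.21 FPKM on PD16. The PD14 libraries were above all others, but the gap was as small as 1.43 against 1.42 FPKM. The mean was 19.5% lower on PD16 and 18.3% lower on PD15 than on PD14. The log2 difference was -0.18 between PD16 and PD14 (SE 0.10, 95% interval -0.41 to 0.04, adjusted p = 0.312) and -0.17 between PD15 and PD14 (adjusted p = 0.465). With 0.1 FPKM added in place of 1 FPKM these were -0.30 (adjusted p = 0.318) and -0.27 (adjusted p = 0.475). The values rest on 109 to 175 fragments per library. The counting interval of the highest PD14 library, 1.45 to 1.96 FPKM, lay above those of PD16 replicate 1 (0.890 to 1.31) and replicate 3 (1.01 to 1.44), while those of the other 2 PD14 libraries overlapped with all PD16 libraries.

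Tjp1 (chr7:65296165-65527781, minus strand) encodes the scaffold protein ZO1, which binds claudins on its inner side and links them to actin. It was expressed at 37.0, 33.9 and 29.5 FPKM on PD14, 36.2, 37.7 and 36.4 FPKM on PD15 and 35.6, 38.0 and 38.9 FPKM on PD16. PD14 replicate 3, the shallowest library, had the lowest value, resting on 4701 fragments (95% Poisson interval 28.7 to 30.4 FPKM). PD14 replicate 1 lay within the range of the later days. The mean was 12.0% higher on PD16 than on PD14 (log2 difference 0.16, SE 0.08, 95% interval -0.01 to 0.34, adjusted p = 0.251), which did not pass the test. This log2 difference was 0.08 without PD14 replicate 3 and 0.24 without PD14 replicate 1.

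Tjp3 (chr10:81273207-81291581, minus strand) encodes ZO3, a scaffold of epithelial junctions. It was the lowest member, at 0.483, 0.267 and 0.291 FPKM on PD14, 0.148, 0.158 and 0.216 FPKM on PD15 and 0.192, 0.225 and 0.222 FPKM on PD16, or 14 to 44 fragments per library. The PD14 libraries were again the highest 3. Its mean was 49.9% lower on PD15 and 38.6% lower on PD16 than on PD14. It did not pass the filter, and in the fit without the filter its log2 difference was -0.20 for PD15 (adjusted p = 0.348) and -0.15 for PD16 (adjusted p = 0.341) against PD14, values that the added 1 FPKM shrinks most in so low a gene. Its exons overlap those of Apba3 on the opposite strand, a gene at 12.1 to 13.8 FPKM in every library, and without strand the reads of both cannot be told apart where they overlap.

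**Figure D3:**
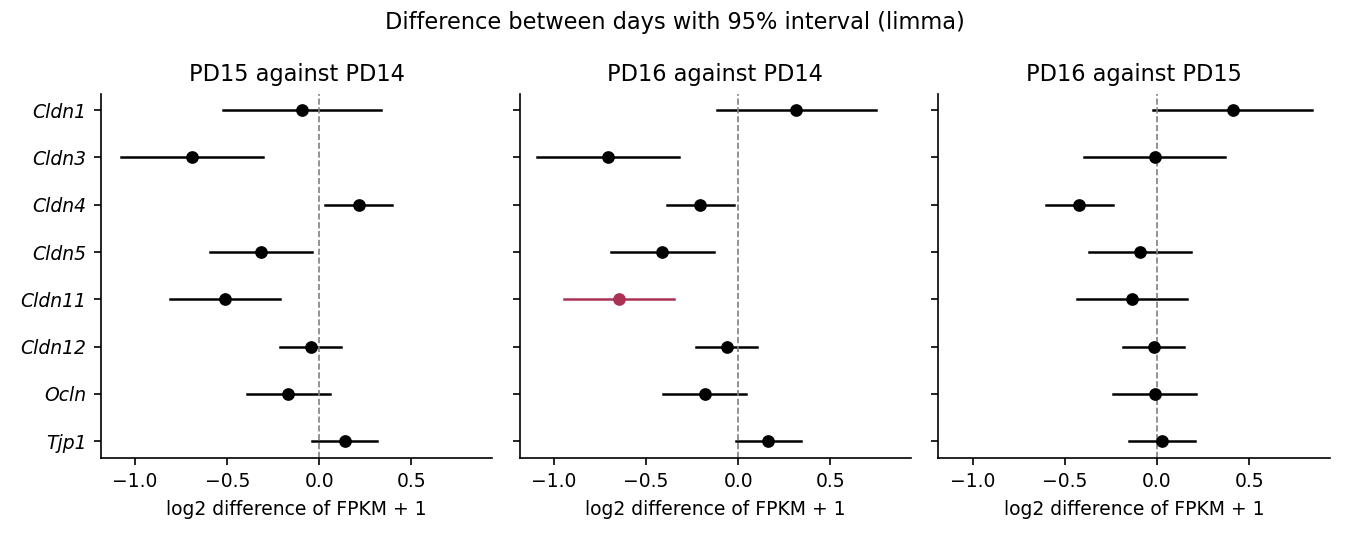
log2 difference of FPKM + 1 between days (horizontal axis) for the 8 members tested, with the 95% interval from limma as a line, for PD15 against PD14, PD16 against PD14 and PD16 against PD15. The red point is the only called difference, Cldn11 on PD16 against PD14, and the interval of Cldn4 on PD16 against PD15 runs from -0.60 to -0.24.

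Read against all genes, the members stood as follows. Between PD15 and PD14, limma called 0 of 8 members, and 0.678% of all genes tested were called. At an unadjusted p under 0.05 it was 4 of 8 members (Cldn3, Cldn4, Cldn5 and Cldn11), against 14.7% of all genes. Between PD16 and PD14 it called 1 of 8 members, Cldn11, against 4.25% of all genes. At an unadjusted p under 0.05 the same 4 members passed as on PD15, against 22.8% of all genes. Cldn3, Cldn5 and Cldn11 were lower on both days than on PD14, while Cldn4 was higher on PD15 and lower on PD16. Between PD16 and PD15 it called 0 of 8, against 0.729%, and 1 of 8 (Cldn4) at an unadjusted p under 0.05, against 14.1%. The F test among the 3 days called 0 of 8 members, against 3.03%, and 4 of 8 at an unadjusted p under 0.05, against 22.3%. The lowest adjusted p of this F test were 0.0529 for Cldn4, 0.0541 for Cldn11 and 0.0671 for Cldn3.

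The libraries of PD15 and PD14 did not overlap in 4 of the 8 members tested (Cldn3, Cldn11 and Ocln lower on PD15, Cldn4 higher), against 20.6% of all genes tested. Those of PD16 and PD14 did not overlap in 5 of the 8, all of them lower on PD16 (Cldn3, Cldn4, Cldn5, Cldn11 and Ocln), against 28.5%. Between PD16 and PD15 this held for 1 of the 8, Cldn4, against 19.6%. Tjp3, which was not among the genes tested, was lower without overlap on both later days than on PD14. The median log2 difference of the 8 members tested was -0.13 between PD15 and PD14, -0.20 between PD16 and PD14 and -0.01 between PD16 and PD15, while the median of all genes tested was 0.01 in each comparison. The comparisons of PD15 and of PD16 with PD14 share the PD14 libraries.

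By level, the order of the members over the 9 libraries was Tjp1, Cldn5, Cldn1, Cldn12, Cldn4, Cldn11, Cldn3, Ocln and Tjp3. Tjp1 was above Cldn5 in 8 of 9 libraries, with overlapping ranges of 29.5 to 38.9 and 21.4 to 37.7 FPKM. Below Cldn5 came a clear gap, since the highest value of Cldn1 was 13.6 FPKM. For Cldn5 and Cldn1 the exon length behind the FPKM is uncertain, and so is their place in this order. Cldn1 (mean 9.90 FPKM), Cldn12 (8.90 FPKM) and Cldn4 (6.96 FPKM) overlapped with their neighbours in the order. The range of Cldn4 began at 5.27 FPKM, above the 4.83 FPKM at which that of Cldn11 ended. Cldn11 was above Cldn3 in 9 of 9 libraries, while Cldn3 was above Ocln in only 5 of 9. Tjp3 was below Ocln in every library.

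Of the other tight junction genes, 32 were tested (2 claudins, 8 membrane proteins and 22 scaffold proteins). Between PD16 and PD14 limma called 3 of them, against 4.25% of all genes, and 0 in either of the other comparisons, against 0.678% and 0.729%. At an unadjusted p under 0.05, 6 of the 32 passed between PD15 and PD14, 7 between PD16 and PD14 and 2 between PD16 and PD15, against 14.7%, 22.8% and 14.1%. Of the 17 other claudins, 4 (Cldn13, Cldn17, Cldn22 and Cldn24) were listed at 0 in all libraries, 7 stayed under 0.5 FPKM in all, and 2 (Cldn15 and Cldn8) passed the filter. Cldn15, which forms pores for sodium, was at 2.29 ± 0.460 FPKM on PD14, 2.68 ± 0.623 on PD15 and 1.98 ± 0.284 on PD16 (SD, n = 3). Cldn8 was at 0.935 ± 0.221, 1.07 ± 0.161 and 0.907 ± 0.169 FPKM, and Cldn20 at 0.706 ± 0.686, 0.521 ± 0.145 and 0.747 ± 0.358 FPKM. Neither claudin that was tested was called in any comparison, and at an unadjusted p under 0.05 the count was 0 as well. The median log2 difference of these was 0.13, -0.08 and -0.21 for PD15 against PD14, PD16 against PD14 and PD16 against PD15.

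Of the 12 other membrane proteins, 8 were tested and 1 was called, between PD16 and PD14, against 4.25% of all genes. Jam2, an adhesion molecule of endothelial and other junctions, was expressed at 23.8, 28.3 and 26.2 FPKM on PD14, 35.6, 34.0 and 35.7 FPKM on PD15 and 52.1, 43.0 and 41.4 FPKM on PD16. No libraries of different days overlapped. It rose from PD14 to PD16 by 0.77 on the log2 scale (SE 0.09, adjusted p = 0.00782), and the call held in all 19 alternatives run, at adjusted p-values of 0.0049 to 0.0358. The steps from PD14 to PD15 (0.42, adjusted p = 0.0871) and from PD15 to PD16 (0.36, adjusted p = 0.117) did not pass. The endothelial marker sum given above overlapped between PD14 and PD16 with Sox18 and was lower on PD16 without it, and 9 of the 12 markers had a log2 difference below 0, opposite to Jam2. The part of vessel content in the Jam2 values was not tested. The related F11r was at 28.2 ± 1.43, 24.7 ± 2.53 and 27.9 ± 2.40 FPKM and Jam3 at 13.3 ± 0.671, 12.9 ± 1.60 and 13.3 ± 0.167 FPKM on the 3 days, with adjusted p-values of 0.925 and 0.983 between PD16 and PD14. The median log2 difference of the list was -0.04, -0.03 and 0.00 for PD15 against PD14, PD16 against PD14 and PD16 against PD15, and at an unadjusted p under 0.05 it held 3, 2 and 1 of 8 genes, against 14.7%, 22.8% and 14.1% of all genes.

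Of the scaffold and polarity proteins, 23 were matched, 22 were tested and 2 were called, both lower on PD16 than on PD14, against 4.25% of all genes. Cgn encodes cingulin, which ties ZO proteins to actomyosin. It was expressed at 11.8, 13.7 and 11.6 FPKM on PD14, 11.1, 12.3 and 10.7 FPKM on PD15 and 8.60, 9.17 and 9.09 FPKM on PD16, with all PD16 libraries below the rest. It fell by 0.42 on the log2 scale (SE 0.08, adjusted p = 0.0236), and its adjusted p was 0.055 and 0.0564 without PD14 replicate 1 and 3, 0.0811 and 0.0519 without PD16 replicate 1 and 2, and 0.0583 without the filter.

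Rab13 encodes a small GTPase that carries proteins to the junction. It was at 16.6, 16.1 and 17.1 FPKM on PD14, 11.5, 15.0 and 12.7 FPKM on PD15 and 12.5, 12.3 and 11.3 FPKM on PD16, so that PD14 stood above both later days. It fell from PD14 to PD16 by 0.43 on the log2 scale (SE 0.09, adjusted p = 0.0294). The adjusted p was 0.0854, 0.0576 and 0.101 without PD14 replicate 1, 2 and 3, 0.0793, 0.0687 and 0.0705 without PD16 replicate 1, 2 and 3, and 0.0766 without the filter. Nor was Rab13 called with the replicate number as a block. The most abundant scaffold genes were Ybx3 (61.3 ± 1.54, 63.3 ± 3.42 and 66.6 ± 2.78 FPKM on PD14, PD15 and PD16), Tjap1 (19.5 ± 1.10, 20.4 ± 1.06 and 21.7 ± 0.566 FPKM) and Prkci (19.0 ± 0.874, 19.5 ± 0.856 and 19.9 ± 0.258 FPKM), none of which was called. The list's median log2 difference was 0.02, 0.01 and -0.02 in the 3 comparisons. At an unadjusted p under 0.05 it held 3, 5 and 1 of 22 genes, against 14.7%, 22.8% and 14.1% of all genes.

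**Figure D4:**
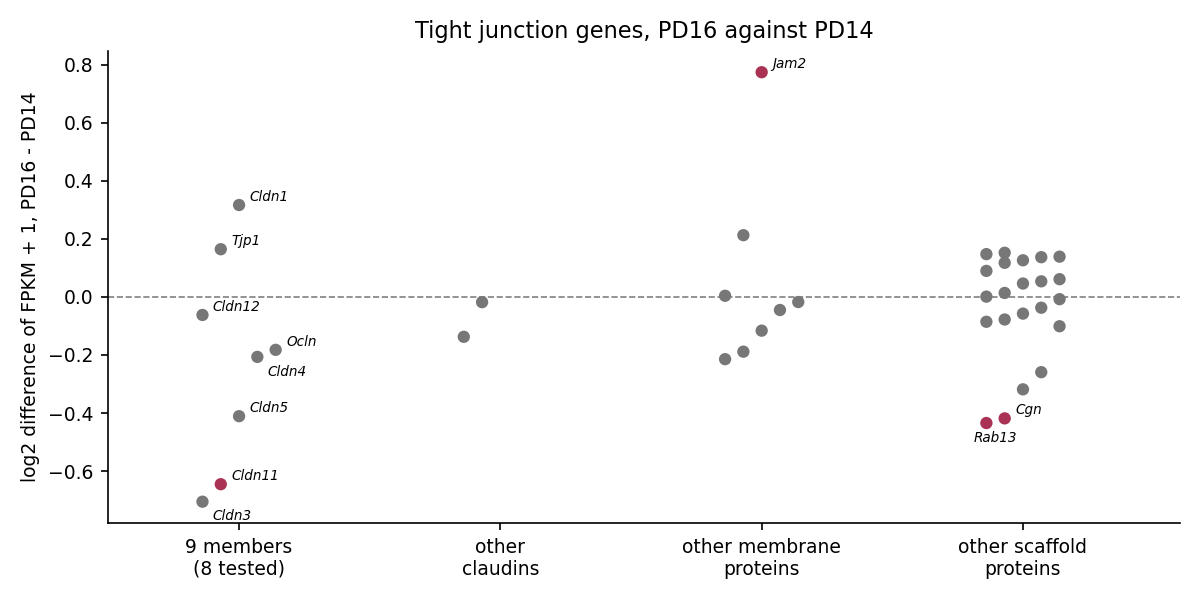
log2 difference of FPKM + 1 between PD16 and PD14 (vertical axis) for the tested genes of the members and of the 3 lists of other tight junction genes, each point a gene. Red points passed the limma test; Jam2 lies at 0.77, while Cldn11, Cgn and Rab13 lie below 0.

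**Figure D5:**
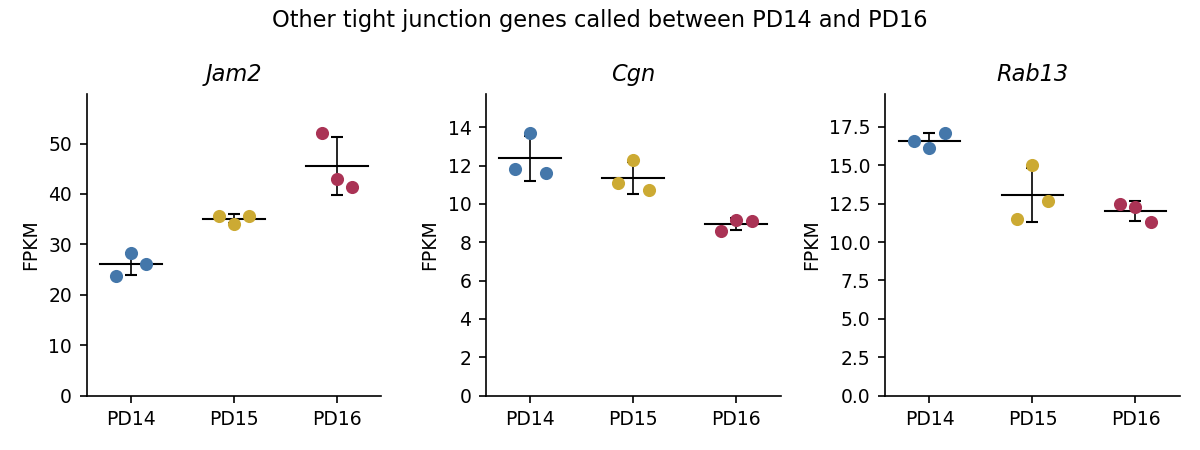
FPKM of Jam2, Cgn and Rab13 in every library by postnatal day. Points are libraries, long bars the means of 3 libraries and error bars their SD; Jam2 goes from 26.1 FPKM on PD14 to 45.5 FPKM on PD16, and all PD16 libraries of Cgn and Rab13 lie below all PD14 libraries.

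Markers of epithelial cells and oviduct were lower on PD16 than on PD14 in their sum, as were Cgn and the means of Cldn3 and Cldn4, while the mean of Cldn1, another epithelial claudin, was 27.7% higher. The single steps differed. From PD14 to PD15 the log2 difference was -0.69 in Cldn3, 0.21 in Cldn4, -0.11 in Cgn and -0.09 in Cldn1, and the median of the 9 markers tested was -0.16. From PD15 to PD16 these were -0.01, -0.42, -0.31 and 0.41, and the marker median was -0.22. The 15 markers summed to 82.6 to 93.2 FPKM on PD14, 76.8 to 83.8 on PD15 and 62.7 to 69.6 on PD16. Of the 9 tested, 4 were called lower on PD16 than on PD14 (Krt8, Krt18, Krt19 and Lgals7) and 0 higher, against 4.25% of all genes in either direction. The log2 difference lay above 0 in 3 of the 9, which were not called: Upk1b (0.09), Upk3b (0.05) and Msln (0.11). The epithelial cadherin Cdh1 did not pass (log2 difference -0.20, adjusted p = 0.343), nor did Epcam (-0.26, adjusted p = 0.0552). At an unadjusted p under 0.05, 4 of the 9 were lower on PD15 than on PD14 and 0 higher, against 14.7% of all genes. On PD16 against PD14 it was 5 lower and 0 higher (22.8%), and on PD16 against PD15 it was 4 lower and 0 higher (14.1%). The oviduct markers were close to 0. Pax8 lay at 0.13 to 0.246 FPKM on PD14 and at 0.0139 to 0.117 FPKM on the later days. Foxj1 lay at 0.327 to 0.552 FPKM on PD14 and at 0.128 to 0.252 FPKM later, so PD14 stood above the later days in both. Ovgp1 lay at 0.153 to 0.779 FPKM, with overlapping days. The part of epithelial content in the values of these genes was not tested. The 9 oocyte markers summed to 984 to 1220 FPKM on PD14, 1240 to 1310 on PD15 and 925 to 981 on PD16. This sum was highest on PD15 and lowest on PD16, the order of days also seen in Cldn4, and its part was not tested either. At an unadjusted p under 0.05, 3 of the 9 were higher on PD15 than on PD14, against 14.7% of all genes, and 6 of the 9 lower on PD16 than on PD15, against 14.1%, and all 9 log2 differences of the latter lay below 0. Called were Bmp15, higher on PD16 than on PD14 (4.25% of all genes called), and Zp2, lower on PD16 than on PD15 (0.729%).

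The protein-coding genes whose log2 values ran most like each member tested over the 9 libraries are given with Pearson's r, as a description of libraries that share their depth and day. For Cldn11 they were Tmem241 (0.967), Tsku (0.965) and Lurap1 (0.965), and for Cldn3 Klhl25 (0.976), C1qtnf6 (0.972) and Kcnab3 (0.969). For Cldn4 they were Vrtn (0.974), Anks4b (0.970) and Pla2g4f (0.970). The nearest genes of Cldn5 were Clec2l (0.967), Cd160 (0.95) and Clca3a1 (0.944). Cldn1 was nearest to Zfp790 (0.952), Krr1 (0.95) and Pi15 (0.915), and Cldn12 to Ssh2 (0.977), Rab40b (0.961) and Mpeg1 (0.907). Ocln had Chst1 (0.930), Rnf43 (0.929) and Tmem218 (0.921), and Tjp1 had Fv1 (0.960), Fam120b (0.933) and Ammecr1l (0.926). No member was among these nearest genes of another, and none are given for Tjp3, which was not tested. The places were filled from all protein-coding genes tested, so the absence of a given gene from them says little.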

How the data were processed

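Total RNA of ovaries was made into libraries with the NEBNext Ultra RNA kit and sequenced on an Illumina HiSeq by a sequencing company. The authors deposited FPKM in 1 table per library, with genes above an FPKM of 1 taken as expressed. The submitters' processing notes name HISAT2 2.0.5 and the build mm10, while the counting program and the annotation release are not given in the sources used here. Libraries were grouped by the day in their labels. Exon lengths and coordinates came from GENCODE M21, to which 97.0% of the 52025 genes were matched. With these lengths, 93.0 to 93.5% of the values under 50 fragments were whole multiples (within 0.01) of a single fragment, which gave the depth. For Cldn1 and Cldn5 no whole fragments were found (within 0.02), so they have no counting interval. The exon lengths behind their FPKM may differ from those used here, which would affect their levels relative to other genes and the claudin shares. Poisson intervals are exact at 95%. No pair of libraries was identical.

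log2(FPKM + 1) of 15495 genes was fitted with limma 3.58.1 (R 4.3.3) (trend on mean intensity), with Benjamini-Hochberg adjustment over all of them. The fit was tested on simulated data. The deposited FPKM were not treated as counts. Named were all 9 members, every other tight junction gene called in any comparison, the 3 most abundant genes of each list and the 3 nearest genes of each member tested (log2 values, predicted genes left out). The members, the 3 lists of other tight junction genes and the marker lists (granulosa, theca and interstitial, oocyte, endothelial, epithelial and oviduct cells) were chosen with earlier results of these data known. Further genes, such as Pard6b, are named for their values. Alternatives were 2 other pseudocounts, 2 other filters, 2 scalings, limma without trend or with a robust prior, a fit of the 2 days compared, a replicate block and leaving out each library. Promoter windows were read from RefSeq with Python 3.11.15.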

Additional observations from a re-analysis of the deposited data

How the results depend on the processing

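Of 621 single-gene differences recomputed under the alternatives, 582 kept their direction and their side of the threshold, 21 lost and 4 gained a call, and 14 changed direction, none of the last being called. The 1 member called between PD16 and PD14 became 0 without the filter, with the filter at a mean FPKM of 5 (which leaves out Cldn11) and with the replicate block, and ran from 0 to 2 when a library was left out. The count between PD16 and PD15 went from 0 to 1 (Cldn4) with the filter at 5 and with quantile normalisation, as did the F test (0 to 1), and leaving out a library gave 0 to 1 in both. Of the other tight junction genes, 3 were called between PD16 and PD14, but 1 (Jam2) without the filter and 1 to 3 when a library was left out, and between PD15 and PD14 0 to 1 (Pard6b, without PD16 replicate 3). The cause was not tested.

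The changes of direction were small. For PD15 against PD14, leaving out a library gave log2 differences of -0.284 to 0.082 in Cldn1 and -0.119 to 0.0068 in Cldn12. For PD16 against PD15, quantile normalisation gave 0.030 in Cldn3 and 0.027 in Ocln. Leaving out a library gave -0.149 to 0.129 in Cldn3, -0.183 to 0.0005 in Cldn5, -0.211 to 0.0085 in Cldn11, -0.062 to 0.020 in Cldn12 and -0.070 to 0.038 in Ocln.

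The labels do not say whether the replicate numbers pair the libraries. Deviations of same-numbered libraries correlated at -0.214 to 0.159, and not every library correlated best with its own number. With 3 libraries per day this check cannot settle pairing. With the replicate block, Cldn11 was not called between PD16 and PD14 (adjusted p = 0.0632), nor was Rab13 (0.0646), and all genes called numbered 227 in place of 659. The counts over all genes depend on single libraries: without PD16 replicate 1, 92 genes were called between PD16 and PD14, and without PD15 replicate 1, 3 in place of 105 between PD15 and PD14 and 14 in place of 113 between PD16 and PD15. Without the filter the counts were 172, 29 and 24 for PD16 against PD14, PD15 against PD14 and PD16 against PD15. Depth limits Cldn3 and Tjp3 most.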

Other observations

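Of the 13 other claudins above 0 in any library, 4 were highest in a single PD14 library, replicate 1, and are named after their values were seen. Of all genes tested in the fit, which passed the filter on low values and include none of these 4 claudins, 9.40% were highest in this library. Cldn7 was at 1.11 FPKM there and at 0.108 to 0.242 FPKM in the other 8 libraries. Cldn10 was at 0.661 FPKM there, above 0.162 to 0.546 FPKM elsewhere, and Cldn20 at 1.48 FPKM, above 0.188 to 0.954 FPKM. Cldn18 was at 0.0733 FPKM there and at 0 to 0.0353 FPKM elsewhere. Markers of several cell types were also highest in it: 2 of 10 of granulosa cells (Cyp19a1 and Inhba), 2 of 6 of theca and interstitial cells (Cyp11a1 and Hsd3b1), 0 of 12 of endothelium, 0 of 9 of oocytes and 4 of 15 of epithelium and oviduct: Cdh1 (3.85 FPKM), Epcam (5.76 FPKM), Krt18 (10.8 FPKM) and Ovgp1 (0.779 FPKM). Of the 9 members, 4 had their highest value in the same library: Cldn3 (2.63 FPKM), Cldn12 (9.90 FPKM), Ocln (1.69 FPKM) and Tjp3 (0.483 FPKM).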
